A study of Mus musculus with 3 samples.

Results

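The 10 genes described here encode the protein part of lung surfactant or belong to the cell that makes it, the alveolar type 2 cell: Sftpc, Sftpb, Sftpa1, Sftpd, Cxcl15, Lamp3, Abca3, Slc34a2, Napsa and Lpcat1. They are given by name, and each was found by its Ensembl ID in the gene table of every library, among 30406 IDs that all the tables held. The level of each gene was followed across 3 classes of lung epithelial cell in E14.5 embryos and in the macrophages of the same libraries. Macrophages do not belong to the epithelium, so their counts gauge how much transcript from other cells was carried into a droplet.

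Single-cell 3' RNA sequencing (10x Genomics) was run on lungs of C57/B6 mouse embryos, which came from 2 females and were pooled before dissociation. Cells were sorted on Epcam, an adhesion protein carried by epithelia, and on Icam1, a ligand of leukocyte integrins, which gave 2 libraries of Epcam+ Icam+ cells and 1 library of Epcam+ cells, and the labels name no genetic change or treatment. Whether the libraries came from separate pools is not stated, so the p-values rest on the spread among these 3 libraries alone, and that spread may be technical. The depth was 74170599 and 67843828 unique molecular identifiers (UMIs) for the Epcam+ Icam+ libraries and 84460347 for the Epcam+ library. The sorts also differed in software version and gene table, which cannot be told apart from the Icam1 sort.

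Surfactant is a film of phospholipid and protein that keeps the air spaces of the lung open. The hydrophobic proteins B and C spread the film, the collectins A and D bind microbes, and lipid and protein are packed together in lamellar bodies, the storage organelles of type 2 cells. In the embryonic mouse lung, Sox9-positive cells at the branch tips give rise to the alveolar epithelium, where type 1 cells turn on Hopx and Clic5 and type 2 cells raise the surfactant genes, while Sox2 marks the airway. Sftpc is known to be transcribed in the tips well before birth.

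Cells were assigned by UMIs of marker genes, none of them among the 10. Epithelial cells with at least 3 UMIs of Hopx plus Clic5 and 0 of Sox2 were called Hopx/Clic5-positive, those with at least 2 of Sox9, 0 of Sox2 and at most 1 of Hopx plus Clic5 tip cells, and those with at least 2 of Sox2, 0 of Sox9 and at most 1 of Hopx plus Clic5 airway cells. The Epcam+ Icam+ libraries held 1109 and 928 Hopx/Clic5-positive cells, 144 and 151 tip cells, 24 and 34 airway cells and 557 and 527 macrophages. The Epcam+ library held 31 Hopx/Clic5-positive cells, 912 tip cells, 115 airway cells and 73 macrophages. The airway class of the Epcam+ Icam+ libraries and the Hopx/Clic5-positive class of the Epcam+ library are therefore small. Other markers were summed to check the classes. The 14 alveolar type 1 genes summed to 2568, 2525 and 1712 CPM (UMIs scaled to the total of the class in a library) in Hopx/Clic5-positive cells, against 1876, 1855 and 1488 CPM in tip cells (each triple gives Epcam+ Icam+ replicate 1, Epcam+ Icam+ replicate 2 and Epcam+). The 9 tip genes summed to 739, 741 and 1331 CPM in tip cells, against 330, 321 and 568 CPM in airway cells, and 10 airway genes to 149, 125 and 97.3 CPM in tip cells, against 5032, 2806 and 1126 CPM in airway cells. Lin28b was at 0 in the tip cells of both Epcam+ Icam+ libraries and Scgb1a1 at 0 in the airway cells of every library. Upk3a was at 0 in the airway cells of Epcam+ Icam+ replicate 1. Of the type 1 genes, Aqp5 and Spock2 were at 0 in the Hopx/Clic5-positive cells of the Epcam+ library. All of the 7 macrophage markers were found in the macrophages of each library and summed there to 3123 to 4133 CPM, against 2.28 to 12.5 CPM in the epithelial classes. The tip genes summed to 432, 431 and 503 CPM in macrophages, which was above airway cells in both Epcam+ Icam+ libraries. The airway class held more mesenchyme and neuroendocrine markers than the tip class did: 4 mesenchyme genes summed to 1.16, 0 and 0.827 CPM in tip cells, against 31.9, 82.9 and 19.3 CPM in airway cells. Of these genes 1, 0 and 3 were found in tip cells, against 2, 1 and 3 in airway cells, and in the airway cells of Epcam+ Icam+ replicate 2 it was Dcn. The 4 neuroendocrine genes summed to 0.581, 1.06 and 2.1 CPM in tip cells, against 2.28, 55.8 and 45.8 CPM in airway cells. The part of these markers in the tip and airway results was not tested.

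All 10 genes are protein-coding on mm10 (GRCm38, GENCODE annotation). Sftpc lies on chromosome 14, 70520949 to 70524081, and the collectin genes lie on the same chromosome, Sftpa1 at 41131782 to 41136452 and Sftpd at 41172214 to 41185149. Sftpb lies on chromosome 6, 72304610 to 72314371, Cxcl15 on chromosome 5, 90794534 to 90803067, and Slc34a2 on chromosome 5, 53038081 to 53071664. Lamp3 lies on chromosome 16, 19653378 to 19706375, Abca3 on chromosome 17, 24351950 to 24410201, Napsa on chromosome 7, 44572380 to 44586862, and Lpcat1 on chromosome 13, 73467197 to 73516422. No exon of the 10 overlapped an exon of another gene on the same strand, and Abca3 and Napsa each overlapped an opposite-strand gene, D330041H03Rik and Gm15396. Whether the counting used strand is not given in the sources used here, so it is not known whether reads of those pairs were kept apart.

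Windows from 250 bases before to 50 after the transcription start were matched in RefSeq (GRCm38.p6) for 7 of the 10 genes, all but Sftpc, Sftpd and Napsa. They were searched on both strands for CTCAAG (or CTTGAG), a core of the NKX2-1 motif, NKX2-1 being the homeodomain factor of the lung epithelium, and for TGTTTA (or TAAACA), a core bound by forkhead factors. The first was found in 3 of the 7 windows and in 15.9% of all 32851 promoter windows in the table, and the second in 2 of the 7 and in 13.4% of all. The windows of 5 genes are shown because the results below turn on them: Sftpa1, Lamp3, Sftpb and Cxcl15 had the largest differences between Hopx/Clic5-positive and tip cells and Lpcat1 the smallest among the genes called there. Capitals mark a match to either motif, and letters run 5′ to 3′ on the strand of the gene. The windows are chr14:41131538-41131837 (Sftpa1, plus strand), chr16:19706316-19706615 (Lamp3, minus strand), chr6:72304360-72304659 (Sftpb, plus strand), chr5:90794284-90794583 (Cxcl15, plus strand) and chr13:73466981-73467280 (Lpcat1, plus strand).
Sftpa1: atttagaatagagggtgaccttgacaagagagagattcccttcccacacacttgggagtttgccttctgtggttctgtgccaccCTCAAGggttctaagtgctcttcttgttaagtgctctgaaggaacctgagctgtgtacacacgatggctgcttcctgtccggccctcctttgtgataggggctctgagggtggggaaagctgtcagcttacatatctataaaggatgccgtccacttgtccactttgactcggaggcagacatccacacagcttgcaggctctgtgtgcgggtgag
Lamp3: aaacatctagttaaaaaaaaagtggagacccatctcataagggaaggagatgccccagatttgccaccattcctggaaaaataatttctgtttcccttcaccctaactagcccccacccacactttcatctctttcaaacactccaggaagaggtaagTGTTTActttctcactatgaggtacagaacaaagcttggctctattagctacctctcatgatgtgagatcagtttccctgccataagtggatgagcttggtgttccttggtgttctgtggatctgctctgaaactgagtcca
Sftpb: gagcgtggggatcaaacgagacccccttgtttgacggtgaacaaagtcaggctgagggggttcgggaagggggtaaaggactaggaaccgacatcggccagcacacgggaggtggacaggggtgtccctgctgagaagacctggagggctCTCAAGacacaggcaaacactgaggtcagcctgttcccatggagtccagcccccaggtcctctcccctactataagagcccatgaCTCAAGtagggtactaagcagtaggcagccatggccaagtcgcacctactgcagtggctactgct
Cxcl15: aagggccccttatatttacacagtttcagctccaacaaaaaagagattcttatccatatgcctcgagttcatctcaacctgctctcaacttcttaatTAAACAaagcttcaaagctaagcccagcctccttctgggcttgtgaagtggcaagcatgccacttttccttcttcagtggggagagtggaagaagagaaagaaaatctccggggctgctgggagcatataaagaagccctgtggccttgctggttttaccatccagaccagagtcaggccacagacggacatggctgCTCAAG
Lpcat1: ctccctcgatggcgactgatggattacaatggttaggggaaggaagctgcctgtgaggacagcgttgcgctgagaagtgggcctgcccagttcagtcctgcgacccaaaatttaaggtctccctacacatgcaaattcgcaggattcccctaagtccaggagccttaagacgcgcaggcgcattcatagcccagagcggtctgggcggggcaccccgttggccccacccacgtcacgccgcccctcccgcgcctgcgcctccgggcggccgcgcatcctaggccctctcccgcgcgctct
Sftpb held 2 matches to CTCAAG and Sftpa1 and Cxcl15 held 1 each, the last of these within the 50 bases after the start of Cxcl15. Lamp3 and Cxcl15 held 1 forkhead match each, and the Lpcat1 window held neither motif. A match describes letters and is not evidence of binding.

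Sftpc, Sftpb, Sftpa1, Cxcl15, Lamp3, Abca3 and Lpcat1 stood higher in tip cells than in macrophages of the same library in all 3 libraries. Slc34a2 and Napsa did so in the Epcam+ Icam+ libraries. Slc34a2 gave 5 UMIs in the 912 tip cells of the Epcam+ library and 0 in its macrophages, and there Napsa was lower in tip cells than in macrophages. Sftpd had at most 0.665 CPM in any epithelial class. The first 7 genes, Slc34a2 and Napsa were lower in Hopx/Clic5-positive than in tip cells of both Epcam+ Icam+ libraries, and all but Sftpc, Abca3 and Lpcat1 were under 10 CPM in airway cells of every library. Levels are given in CPM and compared only within a gene.

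**Figure D1:**
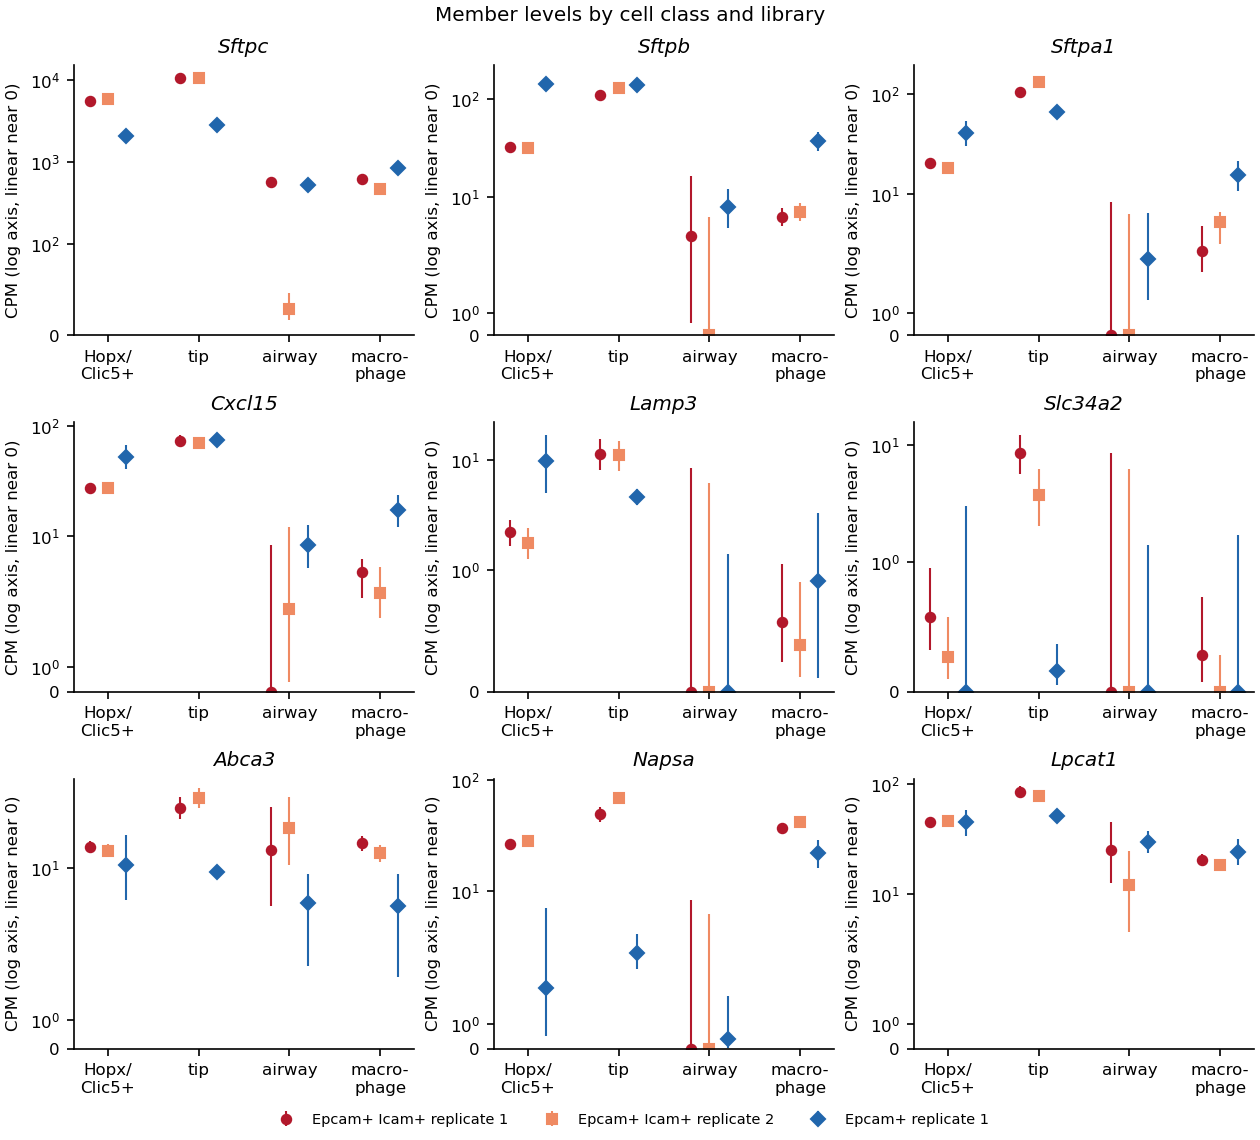
Levels of 9 genes (CPM, log axis that is linear near 0) in Hopx/Clic5-positive, tip and airway cells and macrophages of each library, with exact 95% Poisson intervals as bars. Sftpc in tip cells sits at 10556 and 10783 CPM in the Epcam+ Icam+ libraries and 2843 CPM in the Epcam+ library, and Lamp3 is at 0 in airway cells of all 3.

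Among the film proteins, Sftpc stood at 5535 and 5999 CPM in Hopx/Clic5-positive cells of the Epcam+ Icam+ libraries and 2106 CPM in those of the Epcam+ library. Tip cells held 10556, 10783 and 2843 CPM of Sftpc, and airway cells 567, 28.8 and 525 CPM. Hopx/Clic5-positive cells were lower than tip cells in each library, and airway cells lowest in each. Sftpb stood at 32.6 and 32.0 CPM in Hopx/Clic5-positive cells of the Epcam+ Icam+ libraries, against 111 and 130 CPM in their tip cells. In the Epcam+ library Sftpb stood at 143 CPM (Poisson 122 to 165) in Hopx/Clic5-positive cells and 140 CPM (136 to 144) in tip cells, so the classes overlapped there. Airway cells held 4.56, 0 and 7.94 CPM of Sftpb, from 2, 0 and 21 UMIs.

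Of the collectins, Sftpa1 stood at 20.3, 18.3 and 40.5 CPM in Hopx/Clic5-positive cells, against 106, 133 and 66.1 CPM in tip cells. In airway cells Sftpa1 gave 0, 0 and 9 UMIs. The tip level was the higher in each library, and the gap was widest in the Epcam+ Icam+ libraries. Sftpd, the other collectin, gave 11, 15 and 0 UMIs in Hopx/Clic5-positive cells, 0, 0 and 2 UMIs in tip cells and 0 in all airway cells, too few to compare.

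Among the genes of the lamellar body, Lamp3, a membrane glycoprotein of that organelle, stood at 2.19, 1.77 and 9.72 CPM in Hopx/Clic5-positive cells, against 11.3, 11.1 and 4.64 CPM in tip cells. The order of the classes was thus opposite in the Epcam+ library, where the Hopx/Clic5-positive value rested on 12 UMIs in 10 of 31 cells. Abca3, the lipid pump of the lamellar body, stood at 14.49, 13.6 and 10.5 CPM in Hopx/Clic5-positive cells, 29.3, 35.1 and 9.32 CPM in tip cells and 13.7, 20.3 and 5.30 CPM in airway cells. Macrophages held 15.5, 13.0 and 5.01 CPM of Abca3, so the Hopx/Clic5-positive level was near theirs in the Epcam+ Icam+ libraries. Napsa, an aspartic protease that processes the precursors of proteins B and C, stood at 26.4, 28.2 and 2.43 CPM in Hopx/Clic5-positive cells and 49.4, 69.4 and 3.88 CPM in tip cells, and gave 1 UMI over all airway cells. Macrophages held more Napsa than Hopx/Clic5-positive cells in each library, at 37.0, 42.1 and 21.9 CPM. Whether macrophages make Abca3 or Napsa themselves was not tested.

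Lpcat1, an acyltransferase that remodels surfactant phosphatidylcholine, stood at 44.8, 45.5 and 44.6 CPM in Hopx/Clic5-positive cells, 84.8, 77.9 and 50.7 CPM in tip cells and 25.1, 11.8 and 29.5 CPM in airway cells. Slc34a2, a phosphate transporter of type 2 cells, stood at 0.577, 0.266 and 0 CPM in Hopx/Clic5-positive cells, against 8.43, 3.70 and 0.159 CPM in tip cells, and was at 0 in airway cells. Cxcl15, a secreted chemokine of the lung, stood at 27.6, 27.3 and 52.7 CPM in Hopx/Clic5-positive cells, against 74.1, 71.0 and 75.7 CPM in tip cells, with 0, 2 and 22 UMIs in airway cells. The Cxcl15 tip level was thus alike in the 3 libraries, whereas Slc34a2 in tip cells was mostly seen in the Epcam+ Icam+ libraries.

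UMIs were summed per library and class, 9 sums in all, and tested over all genes with edgeR's quasi-likelihood test, with library as a block and Benjamini-Hochberg adjustment at 0.05. Of the 10 genes, 8 passed the filter on low counts, Sftpd and Slc34a2 being left out. In Hopx/Clic5-positive against tip cells, 7 of the 8 were lower and 0 higher, where 1.42% of all 10784 genes tested were lower and 2.12% higher. The median log2 fold change of the 8 was -1.14, and over all genes tested it was -0.01. The largest differences were those of Sftpa1 (log2 fold change -2.34, SE 0.204, edgeR adjusted p = 2.7e-06, n = 3 libraries) and Lamp3 (-1.93, SE 0.457, edgeR adjusted p = 0.0255). Sftpb differed by -1.36 (SE 0.226, edgeR adjusted p = 0.0016), Cxcl15 by -1.20 (SE 0.134, edgeR adjusted p = 4.32e-05), Napsa by -1.08 (SE 0.135) and Abca3 by -1.07 (SE 0.167). Lpcat1 had the smallest difference called, -0.68 (SE 0.132, edgeR adjusted p = 0.00551). Sftpc differed by -0.76 (SE 0.411) and missed the threshold (edgeR adjusted p = 0.432), although it was lower in 3 of 3 libraries.

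**Figure D2:**
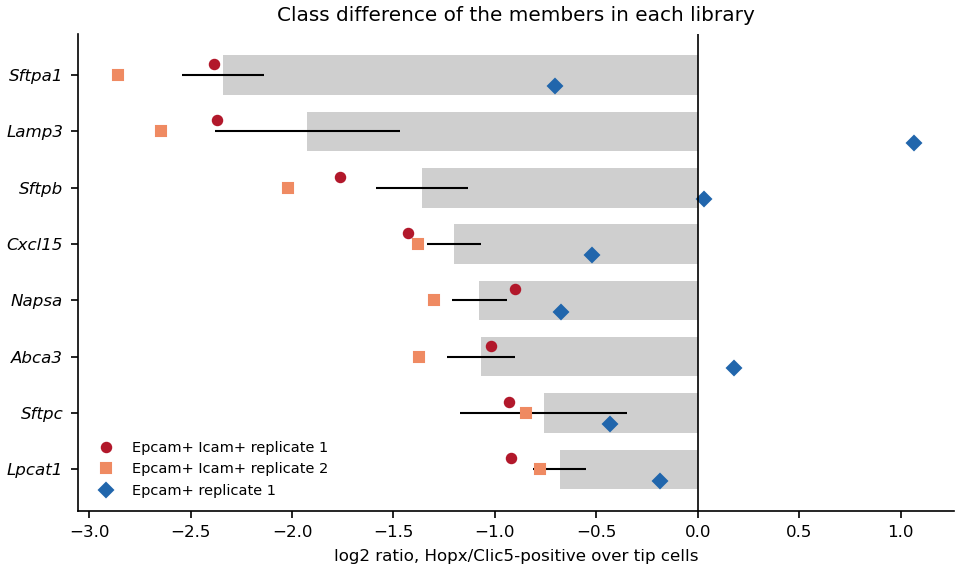
Log2 ratio of Hopx/Clic5-positive over tip cells in each library (points) and the edgeR log2 fold change over the 3 libraries with its standard error (grey bars with lines), for the 8 genes tested. All 8 points of both Epcam+ Icam+ libraries lie below 0, whereas Lamp3 (1.07), Abca3 (0.18) and Sftpb (0.03) lie above 0 in the Epcam+ library.

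Within the libraries, Sftpa1, Cxcl15, Napsa, Lpcat1 and Sftpc had a negative log2 ratio in all 3, and Sftpb, Lamp3 and Abca3 in the Epcam+ Icam+ libraries only. Without Epcam+ Icam+ replicate 1 the calls were 3 (Cxcl15, Napsa and Sftpa1), where 12 of all 10810 genes tested were lower. Without Epcam+ Icam+ replicate 2 they were 2 (Cxcl15 and Sftpa1), where 15 of 10598 were lower. Without the Epcam+ library all 9 members then tested were lower, Sftpc and Slc34a2 included, where 437 of 10925 genes were. DESeq2 called 1 member, Napsa, where 71 of 10784 genes were lower. The fit with no library block called 0 members, and 0 of all 10784 genes in either direction. Every log2 fold change of the members was still negative.

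In tip against airway cells, all 8 genes tested were higher and 0 lower, where 11.0% of genes were higher and 9.08% lower. The log2 fold change was 5.20 for Sftpa1 (SE 0.514, edgeR adjusted p = 6.05e-07). Sftpb differed by 4.79 (SE 0.513) and Sftpc by 4.06 (SE 0.499, edgeR adjusted p = 8.21e-06). Cxcl15 differed by 3.68 (SE 0.287), Lpcat1 by 1.34 (SE 0.211, edgeR adjusted p = 0.000136) and Abca3 by 0.92 (SE 0.290, edgeR adjusted p = 0.0299). Lamp3 and Slc34a2 had no airway UMI, so tip cells were set against a floor of 3 counts per library, which was 6.83, 5.07 and 1.13 CPM. Lamp3 was at least 1.66-fold, 2.19-fold and 4.09-fold higher in tip cells than this floor. Slc34a2 was at least 1.23-fold higher in Epcam+ Icam+ replicate 1, and its tip level was under the floor in the other libraries. Napsa, with no airway UMI in the Epcam+ Icam+ libraries, was at least 7.23-fold and 13.7-fold higher in their tip cells. In the Epcam+ library, where airway cells gave 1 Napsa UMI, the ratio of tip to airway was 10.3 with an exact 95% interval of 1.81 to 409. These bounds and intervals cover counting error only. With no library block 4 of the 8 passed (Cxcl15, Sftpb, Lpcat1 and Sftpa1), where 58 of all 10784 genes tested were higher. The call for Abca3 was lost without any one of the 3 libraries.

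In Hopx/Clic5-positive against airway cells 5 of the 8 genes were higher and 0 lower, where 7.95% of genes were higher and 6.20% lower. Sftpb differed by 3.43 (SE 0.596, edgeR adjusted p = 0.000538), Sftpc by 3.30 (SE 0.487, edgeR adjusted p = 9.8e-05), Sftpa1 by 2.86 (SE 0.708) and Cxcl15 by 2.48 (SE 0.337). Napsa was also called, and was at least 3.86-fold and 5.55-fold higher than the airway floor in the Epcam+ Icam+ libraries. Its level in Hopx/Clic5-positive cells was below that in macrophages of every library. In the Epcam+ library its ratio was 6.43 (exact 95% interval 0.516 to 337), from 3 UMIs in Hopx/Clic5-positive cells and 1 in airway cells. Lpcat1 (0.66, SE 0.234, edgeR adjusted p = 0.0692) and Abca3 (-0.15, SE 0.328, edgeR adjusted p = 0.839) missed the threshold, and so did Lamp3. Its level in Hopx/Clic5-positive cells was under the airway floor in both Epcam+ Icam+ libraries and at least 8.57-fold higher than it in the Epcam+ library, from 12 UMIs. With no library block 0 of the 8 passed, where 30 of all 10784 genes tested were higher. After each cell was thinned to 5000 UMIs before gating 2 (Cxcl15 and Sftpc) passed, where 147 of 7787 genes were higher.

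The level of the surfactant genes also varied along the Hopx and Clic5 count itself. Epithelial cells with 0 Sox2 UMIs were thinned to 5000 UMIs each and split by their Hopx plus Clic5 UMIs. In the Epcam+ Icam+ libraries Sftpc stood at 6604 and 6833 CPM in cells with 0 such UMIs, 4991 and 4703 CPM with 1, 4653 and 4651 CPM with 2, 2986 and 3760 CPM with 3 to 4, and 1680 and 1732 CPM with 5 or more. The Sftpc level was thus lower in each step, but the cells with the most Hopx and Clic5 still held it. From 1 to 2 UMIs in Epcam+ Icam+ replicate 2 the Poisson intervals overlapped (4616 to 4792 and 4520 to 4785 CPM). Sftpa1 was already lower in the first step, with 47.4 and 49.1 CPM at 0 UMIs, 13.8 and 10.2 CPM at 1 and 7.78 and 1.26 CPM at 3 to 4. Napsa stayed within 19.9 to 35.4 CPM across the bins of these libraries with no order among them. In the Epcam+ library only the bins of 0 (1958 cells) and 1 (77 cells) held at least 20 cells, with Sftpc at 2552 and 1579 CPM and Sftpb at 107 and 70.1 CPM. Its 2 cells with 2 such UMIs held 1 Sftpc UMI and 4 Sftpb UMIs after thinning, and no cell had more. These are descriptions with no test, and the last bin holds 45 and 41 cells.

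**Figure D3:**
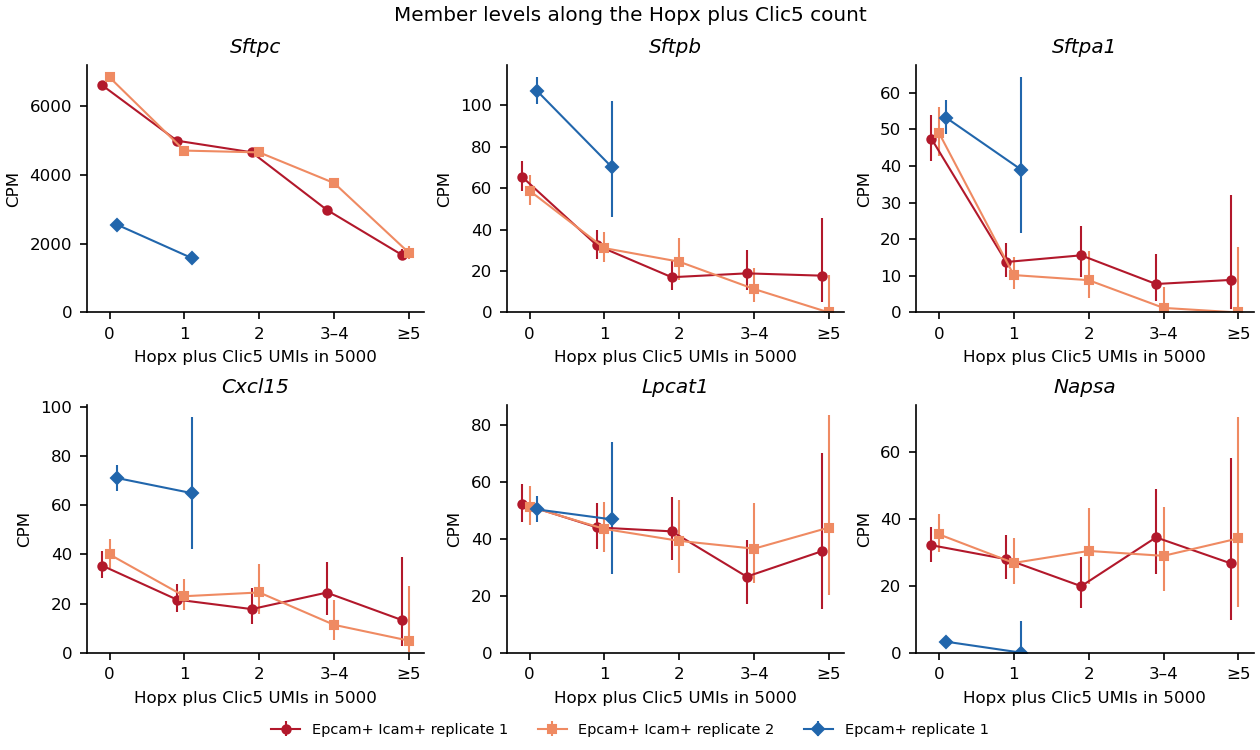
Levels of 6 genes (CPM, with exact 95% Poisson intervals) against the number of Hopx plus Clic5 UMIs in 5000, in epithelial cells without Sox2, for bins of at least 20 cells. In the Epcam+ Icam+ libraries Sftpc goes from 6604 and 6833 CPM in the first bin to 1680 and 1732 CPM in the last, whereas Napsa shows no order.

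Sox9 split the Hopx/Clic5-positive cells too. In the Epcam+ Icam+ libraries 293 of 1109 and 287 of 928 of them had at least 2 Sox9 UMIs, and 538 and 431 had none. Sftpc stood at 3931 and 4025 CPM in those without Sox9, 6817 and 7786 CPM in those with at least 2, and 10556 and 10783 CPM in tip cells. Sftpb stood at 22.0 and 21.9 CPM without Sox9 and at 43.1 and 43.2 CPM with it, and Sftpa1 at 8.65 and 9.75 CPM without and 35.6 and 25.7 CPM with it. Cells positive for both markers were thus between the other groups for these genes, in both libraries. In the Epcam+ library 19 of the 31 Hopx/Clic5-positive cells had at least 2 Sox9 UMIs and 2 had none, so this class was made up differently there. Its Hopx level was 250.5 and 240.5 CPM in the Epcam+ Icam+ libraries, against 74.6 CPM in the Epcam+ library. The 9 tip genes summed to 497 and 507 CPM in the Hopx/Clic5-positive cells of the Epcam+ Icam+ libraries, against 1126 CPM in those of the Epcam+ library. The part of this in the differences between libraries was not tested.

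**Figure D4:**
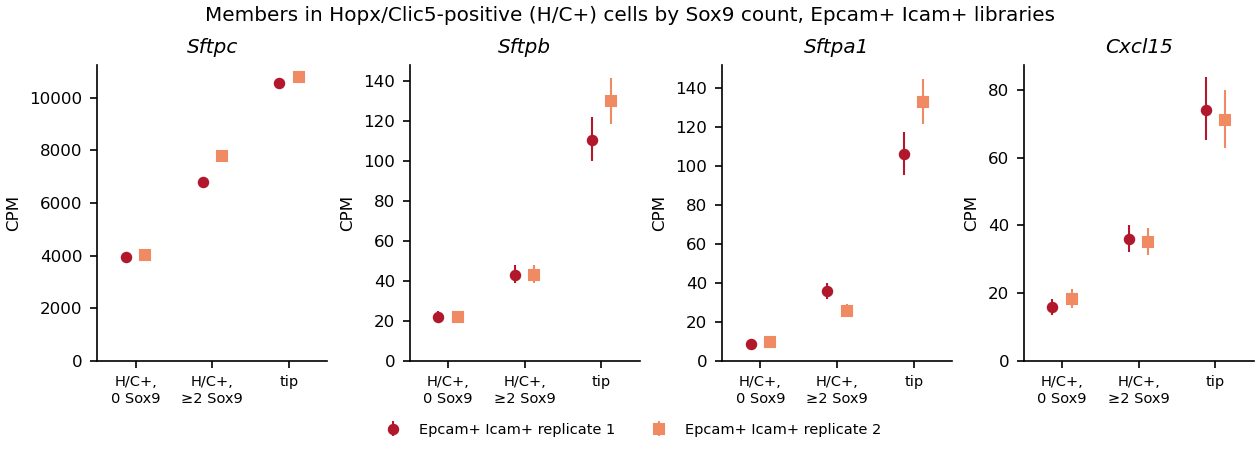
Levels of 4 genes (CPM, with exact 95% Poisson intervals) in Hopx/Clic5-positive cells with 0 and with at least 2 Sox9 UMIs and in tip cells of the Epcam+ Icam+ libraries. Sftpc stands at 3931 and 4025 CPM, 6817 and 7786 CPM, and 10556 and 10783 CPM in the 3 groups.

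Single cells were compared after thinning each to 5000 UMIs, which left out 0 to 4 cells per class and library except the macrophages of the Epcam+ Icam+ libraries (22 and 33 cells). An Sftpc UMI was then found in 77.0%, 75.8% and 93.5% of Hopx/Clic5-positive cells, 94.4%, 92.1% and 95.5% of tip cells and 21.7%, 8.82% and 58.8% of airway cells. Macrophages had one in 33.5%, 30.0% and 59.4%, and the airway share was the lower in each library. The exact binomial intervals were apart only in Epcam+ Icam+ replicate 2 (1.86% to 23.7% in airway cells, 25.9% to 34.2% in macrophages). They overlapped in Epcam+ Icam+ replicate 1 (7.46% to 43.7% and 29.5% to 37.6%) and in the Epcam+ library (49.2% to 67.9% and 46.9% to 71.1%). Whether the Sftpc UMIs of airway cells came from other cells was not tested. With a lineage share of at least 0.9 for both classes, against at least 0.8 elsewhere, the shares were 21.7%, 8.82% and 58.4% in airway cells and 31.9%, 27.0% and 51.0% in macrophages. The airway share was then the higher in the Epcam+ library, with overlapping exact binomial intervals (48.8% to 67.6% in airway cells, 36.6% to 65.2% in macrophages). Unthinned, the Sftpc shares were 86.7%, 85.6% and 100% in Hopx/Clic5-positive cells, 95.8%, 96.0% and 100% in tip cells, 45.8%, 20.6% and 91.3% in airway cells and 54.8%, 52.0% and 94.5% in macrophages, at median depths from 15500 UMIs (airway) to 34380 UMIs (Hopx/Clic5-positive). An Sftpb UMI was found after thinning in 8.31%, 8.95% and 35.5% of Hopx/Clic5-positive cells, 27.8%, 36.4% and 37.1% of tip cells, 0%, 0% and 2.63% of airway cells and 1.87%, 1.62% and 13.0% of macrophages. An Sftpa1 UMI was found in 4.16%, 4.75% and 16.1% of Hopx/Clic5-positive cells, 20.8%, 27.8% and 24.1% of tip cells and 0.561%, 1.21% and 5.80% of macrophages. A Napsa UMI was found in 11.0%, 11.4% and 0% of Hopx/Clic5-positive cells and 10.1%, 11.5% and 7.25% of macrophages, so the shares of Hopx/Clic5-positive cells were near or below those of macrophages. Whether macrophages make Napsa themselves was not tested, so their share is not taken as a background level for it.

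Sftpa1 was found more often in cells with Sftpb than in cells without it, given here with no test. Among thinned tip cells with an Sftpb UMI, 55.0%, 47.3% and 34.6% also had an Sftpa1 UMI, against 7.69%, 16.7% and 17.8% of those without. Among Hopx/Clic5-positive cells the shares were 26.1%, 25.3% and 27.3% of cells with an Sftpb UMI, against 2.17%, 2.73% and 10.0% of those without. The first share was the higher in both classes of every library, on 11 to 338 cells with Sftpb.

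Sftpc per cell spread widely within the classes. Its median was 1992, 2020 and 1448 CPM in Hopx/Clic5-positive cells and 6478, 7319 and 1870 CPM in tip cells, with 10th and 90th percentiles in tip cells of 545 and 24534 CPM, 245 and 22365 CPM, and 384 and 6701 CPM. In airway cells the median was 0, 0 and 132 CPM, against 31.9, 26.0 and 192 CPM in macrophages. Of the 249 Sftpc UMIs in the airway cells of Epcam+ Icam+ replicate 1, 221 came from 1 of the 24 cells.

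In macrophages Sftpc stood at 622, 471 and 848 CPM, which was 5.89%, 4.37% and 29.8% of the tip level of the same library. Sftpb (5.72%, 5.48% and 26.7%), Sftpa1 (3.55%, 3.97% and 23.4%), Cxcl15 (6.62%, 5.66% and 22.9%) and Lamp3 (5.02%, 3.49% and 19.6%) were near the same share. For 12 other epithelial genes, Epcam and the keratins among them, the median share was 16.2%, 16.6% and 29.6%, with ranges of 9.14% to 25.2%, 6.88% to 29.8% and 24.5% to 41.9%. The 5 members lay below that range in the Epcam+ Icam+ libraries, and at its low end or below it in the Epcam+ library apart from Sftpc at its median. Lpcat1, at 24.0%, 23.3% and 47.6%, lay within it in the Epcam+ Icam+ libraries and above it in the Epcam+ library. Abca3 (52.8%, 37.0% and 53.7%) and Napsa (75.0%, 60.6% and 563%) lay above it in every library, and the macrophage level of Napsa in the Epcam+ library, 21.9 CPM, exceeded its tip level of 3.88 CPM. In the Epcam+ library the Poisson intervals of Abca3 (26.8% to 96.1%, from 11 macrophage UMIs) and Lpcat1 (35.7% to 62.3%) reached into the range. Those of Sftpb, Sftpa1, Cxcl15 and Lamp3 (2.37% to 70.8%, from 2 macrophage UMIs) did so too. In the Epcam+ Icam+ libraries the interval of Lamp3 reached it in both, and that of Cxcl15 in replicate 2. With a lineage share of at least 0.9 the macrophage level of Sftpc was 329, 214 and 328 CPM, or 3.12%, 1.98% and 11.5% of the tip level.

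**Figure D5:**
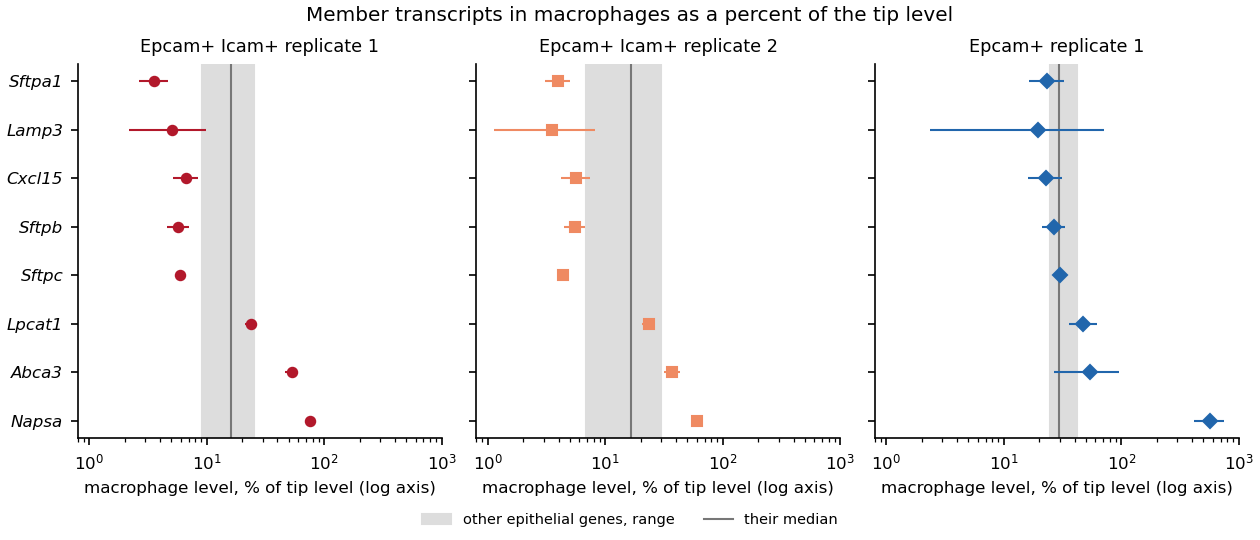
Macrophage level of 8 genes as a percent of their tip level in the same library (log axis), with exact 95% Poisson intervals of the macrophage count, beside the range (grey) and median (line) of 12 other epithelial genes. Sftpc lies at 5.89%, 4.37% and 29.8%, and Napsa at 75.0%, 60.6% and 563%.

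The Sftpc UMIs of macrophages were concentrated in few cells. The 10% of macrophages with the most UMIs of a gene (56, 53 and 8 cells) held 88.0%, 88.7% and 73.9% of them, against 64.1%, 69.3% and 48.7% for Epcam. For Napsa they held 81.6%, 85.3% and 91.7%. Sftpc in airway cells, at 567, 28.8 and 525 CPM, was below its level in macrophages in each library, at 622, 471 and 848 CPM. With a lineage share of at least 0.9 the order turned in 2 of the 3 libraries: airway cells still held 567, 28.8 and 525 CPM, against 329, 214 and 328 CPM in macrophages. In 1 of these 2, Epcam+ Icam+ replicate 1, the airway level rested on 1 cell, which gave 221 of the 249 Sftpc UMIs.

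The Epcam+ Icam+ and Epcam+ sorts were compared within each class, 2 libraries against 1, where the spread had to be borrowed across genes (1 residual degree of freedom). In tip cells 7 of the 9 genes tested were higher in the Epcam+ Icam+ libraries and 1 lower, where 34.0% of all 10948 genes were higher and 34.1% lower. The largest differences were those of Slc34a2 (log2 fold change 5.04, SE 0.640) and Napsa (3.83, SE 0.184), before Sftpc (1.80, SE 0.100) and Abca3 (1.69, SE 0.157). Lamp3 differed by 1.16 (SE 0.226, edgeR adjusted p = 0.00013), Sftpa1 by 0.75 (SE 0.100) and Lpcat1 by 0.57 (SE 0.0931). Sftpb was lower (-0.32, SE 0.0883, edgeR adjusted p = 0.00324), and Cxcl15 missed the threshold (-0.17, SE 0.0893, edgeR adjusted p = 0.0969). With cells thinned before gating the number called changed in both directions.

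In Hopx/Clic5-positive cells 2 of 10 were higher in the Epcam+ Icam+ libraries and 4 lower, where 20.6% of 13387 genes were higher and 17.8% lower. Sftpc (1.44, SE 0.0458) and Napsa (3.47, SE 0.489) were higher. Sftpb (-2.16, SE 0.134), Lamp3 (-2.30, SE 0.553), Sftpa1 (-1.08, SE 0.223) and Cxcl15 (-0.95, SE 0.193) were lower, against the 31 cells of the Epcam+ library. With a gate of at least 5 UMIs of Hopx plus Clic5, or with Clic5 alone, fewer were called in both directions. Each of these gates left 2 cells in the Epcam+ library. In airway cells 3 genes were tested, where 17.1% of 7269 genes were higher and 16.3% lower, and Sftpc was lower (-0.93, SE 0.191, edgeR adjusted p = 2.1e-05). Without Epcam+ Icam+ replicate 2 the log2 fold change was 0.11, and without Epcam+ Icam+ replicate 1, in which 1 cell held most Sftpc UMIs, it was -4.19. Abca3 and Lpcat1 in airway cells missed the threshold, and the remaining genes had too few counts.

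Whether a class difference itself differed between the sorts was tested as an interaction. For Hopx/Clic5-positive against tip cells 3 of the 8 genes passed, where 0.185% of genes did in either direction: Sftpb (difference of log2 fold changes -1.88, SE 0.176, edgeR adjusted p = 4.59e-08), Sftpa1 (-1.87, SE 0.304, edgeR adjusted p = 0.00161) and Lamp3 (-3.51, SE 0.666, edgeR adjusted p = 0.00934). Each was more negative in the Epcam+ Icam+ libraries, where the log2 ratio of Sftpb was -1.77 and -2.02, against 0.03 in the Epcam+ library. For Sftpa1 it was -2.38 and -2.86, against -0.71, and for Lamp3 -2.37 and -2.65, against 1.07. For tip against airway cells 1 of the 8 passed, Sftpc (2.83, SE 0.469, edgeR adjusted p = 0.000419), where 1.17% of genes did. DESeq2 called Sftpa1 and Lamp3 but not Sftpb in the first interaction, and did not call Sftpc in the second.

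Related genes from 4 lists were counted in the same fits, without the gate genes. Over all 10784 genes tested, edgeR called 2.12% higher and 1.42% lower in Hopx/Clic5-positive against tip cells, and DESeq2 146 genes higher and 71 lower. For tip against airway cells these were 11.0% and 9.08% with edgeR, and 1161 and 1011 genes with DESeq2. Of 20 other alveolar type 2 genes 13 were tested, and in Hopx/Clic5-positive against tip cells 7 were lower and 1 higher, with a median log2 fold change of -0.38. Dram1, a lysosomal membrane protein, stood at 43.5, 44.7 and 30.0 CPM in Hopx/Clic5-positive cells, against 121, 127 and 37.7 CPM in tip cells (-1.34, SE 0.124, edgeR adjusted p = 4.79e-06). Dlk1, a Notch ligand family member (-0.81, SE 0.163), Egfl6, a secreted matrix protein (-0.71, SE 0.153), and Lgi3, a secreted protein (-0.64, SE 0.134), were lower as well. DESeq2 called 2 lower and 0 higher. In tip against airway cells 10 of the 13 were higher and 0 lower, with Dram1 at 5.10 (SE 0.361), Dlk1 at 3.70 (SE 0.245), Egfl6 at 2.83 (SE 0.284) and Lgi3 at 2.73 (SE 0.251). DESeq2 called 9 higher.

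Of 23 genes of phospholipid and fatty acid synthesis 21 were tested, and 0 passed in Hopx/Clic5-positive against tip cells with edgeR or DESeq2. At an unadjusted p under 0.05 edgeR had 2 higher and 2 lower, and the median log2 fold change was -0.02. In tip against airway cells 5 were higher and 2 lower, where 11.0% of all genes tested were higher and 9.08% lower. Chpt1, a cholinephosphotransferase, stood at 45.9, 40.9 and 20.2 CPM in tip cells, against 22.8, 28.8 and 14.4 CPM in airway cells (0.67, SE 0.174, edgeR adjusted p = 0.00946). Pgs1 (0.59, SE 0.173), which makes the precursor of phosphatidylglycerol, and Fasn (0.56, SE 0.162), the fatty acid synthase, were also higher, and Elovl6, a fatty acid elongase, lower (-1.19, SE 0.312).

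Of 18 regulators 17 were tested, and in Hopx/Clic5-positive against tip cells 2 were higher and 3 lower with edgeR, and 0 higher and 1 lower with DESeq2. Etv5, an ETS factor of the tip, stood at 77.8, 80.8 and 197 CPM in Hopx/Clic5-positive cells, against 145, 162 and 212 CPM in tip cells (-0.68, SE 0.134, edgeR adjusted p = 0.00591). Cebpa (-0.70, SE 0.179), a C/EBP factor, and Id2 (-0.61, SE 0.0867), a helix-loop-helix inhibitor, were lower, and Klf5 (0.51, SE 0.132), a zinc finger factor, higher. In tip against airway cells 4 were higher, Etv5 (3.08, SE 0.233) and Gata6 (1.72, SE 0.149) among them, and 6 lower, Cebpd (-3.48, SE 0.433) and Klf5 (-1.61, SE 0.148) among them. Over all genes tested 11.0% were higher and 9.08% lower there.

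Of 15 genes of the lamellar body and secretory path 14 were tested, and 2 were higher and 1 lower in Hopx/Clic5-positive against tip cells. Of all genes tested 2.12% were higher and 1.42% lower. DESeq2 called 2 higher and 0 lower. Gprc5a, a membrane receptor, was higher (0.59, SE 0.0925, edgeR adjusted p = 0.000996), and Ctsh, a cathepsin, lower (-0.38, SE 0.0919, edgeR adjusted p = 0.0235). Gprc5a is also among the alveolar type 1 genes summed above to check the Hopx/Clic5-positive class. In tip against airway cells 1 was higher, Ctsh (1.78, SE 0.129), and 3 lower: Syt7 (-1.80, SE 0.245), a synaptotagmin, Rab38 (-1.02, SE 0.210), a small GTPase, and Anxa7 (-0.69, SE 0.138), an annexin. Among all genes tested 11.0% were higher and 9.08% lower there.

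The genes most like 3 of the members were ranked over the 3 classes and the ungated epithelial cells of the 3 libraries (12 points), by Pearson's r of log2(CPM + 5) centred within library, among 5137 genes. Sftpa1 was most like Dram1 (0.982), Irx2 (0.980), Rgs10 (0.979), Cxcl15 (0.978) and Sftpb (0.975). Sftpb was most like Atox1 (0.990), Rpp21 (0.988), Bex4 (0.984), Rbm3 (0.982) and Dlk1 (0.981). Sftpc was most like Dusp12 and Fzd2 (0.988 each), Trim28 (0.986), Cdc42ep1 (0.984) and Epha4 (0.984). The points of a library share its depth, and these values are descriptions with no test.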

How the data were processed

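Per the labels' protocols, pooled E14.5 lungs were dissociated, stained for Epcam and Icam1 and run on 10x Genomics 3' chemistry. The authors deposited UMI counts for each gene in each barcode. The submitters' processing notes name Cell Ranger 2.1.1 and mm10, whereas per the file headers version 5.0.1 wrote both Epcam+ Icam+ matrices and version 3.0.2 the Epcam+ matrix. Gene tables held 32285 and 31053 genes and were joined by Ensembl ID, which kept 99.5% to 99.9% of UMIs. The counts were deposited unnormalised, with barcodes of at least 500 UMIs.

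Cells were kept with at least 1000 UMIs, 500 genes and at most 10% mitochondrial UMIs. Doublet scores came from scrublet in scanpy 1.11.5, whose automatic threshold found 0 doublets and was not used. The highest scores were left out at 0.8% per 1000 barcodes (129, 115 and 88 cells), which left 3271, 3052 and 2902 cells. Libraries shared at most 3 barcodes. Epithelial cells had at least 10 UMIs over lineage markers, at least 80% of them epithelial, and macrophages at least 80% immune with at least 5 UMIs of C1qa, C1qb, C1qc and Pf4. No clustering was used, and RNA free in the suspension was not removed.

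Sums per library and class were fitted with edgeR 4.0.16 in R 4.3.3 (TMM scaling, filterByExpr, threshold 0.05), with DESeq2 1.42.0 as an alternative. Each standard error (SE) was derived from the edgeR test, as the absolute log2 fold change over the square root of its F statistic. The class fit had 4 residual degrees of freedom and a biological coefficient of variation of 6.84%, the fits between sorts 1 degree and 2.26% to 12.1%, and the interaction fit 2 degrees and 3.31%. The class fit and the fit between sorts in tip cells were also run on simulated counts. Apart from depth and the planted changes, classes and libraries were alike there, and only genes with ample counts were changed. Those runs therefore do not cover library differences or the low airway counts. CPM intervals are exact Poisson and shares exact binomial at 95%, and cover counting error only. Up to 4 genes per list are named, those with the largest change among genes that passed, averaged 10 CPM or more and moved one way in all 3 libraries. Members and lists were chosen with earlier results of these data known.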

Additional observations from a re-analysis of the deposited data

Results flagged for a closer look

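The difference between Hopx/Clic5-positive and tip cells was itself different between the sorts for Sftpb (-1.88 on the log2 scale, Epcam+ Icam+ minus Epcam+), Sftpa1 (-1.87) and Lamp3 (-3.51), by the interaction test of edgeR. DESeq2 did not call Sftpb. In the Epcam+ library the class held 31 cells, 19 of them with at least 2 Sox9 UMIs, and the 3 cells with the most Sftpb gave 34.1% of its 176 Sftpb UMIs. The part of these in the result was not tested.

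For Sftpc the difference between tip and airway cells was different between the sorts by 2.83 on the log2 scale with edgeR, a call that DESeq2 did not make. The tip level of Sftpc was 10556 and 10783 CPM in the Epcam+ Icam+ libraries, against 2843 CPM in the Epcam+ library. Airway cells held 567 and 28.8 CPM, against 525 CPM, and macrophages 622 and 471 CPM, against 848 CPM (329 and 214 CPM, against 328 CPM, with a lineage share of at least 0.9). Of the 249 airway UMIs behind the 567 CPM, in Epcam+ Icam+ replicate 1, 221 came from 1 cell.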

How the results depend on the processing

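The directions of the genes called in the 3 class comparisons were the same in every alternative run, while the number past the threshold was not. In Hopx/Clic5-positive against tip cells 7 members were lower, 1 with DESeq2 and 0 with no library block, and 2 to 9 when 1 library was left out. Over all genes tested 153 were lower, 71 with DESeq2, 0 with no library block and 12 to 437 without 1 library. In tip against airway cells 8 members were higher, 4 with no library block and 7 to 8 without 1 library. All genes gave 1190 higher, 58 with no library block and 685 to 867 without 1 library. In Hopx/Clic5-positive against airway cells 5 members were higher, 2 after thinning, 0 with no library block and 5 to 6 without 1 library. The same counts over all genes were 857, 147, 30 and 394 to 677. Between the sorts in tip cells the number of members called changed with thinning, with no filter and with at least 3 Sox9 or Sox2 UMIs. In airway cells that number changed with DESeq2, with at least 3 Sox UMIs and with at least 5000 UMIs per cell. It also changed with an airway gate of at least 1 Sox2 UMI, chosen after seeing the data. The Sftpc log2 ratio there was -4.19 without Epcam+ Icam+ replicate 1 and 0.11 without Epcam+ Icam+ replicate 2. In Hopx/Clic5-positive cells it changed with gates of at least 5 UMIs and of Clic5 alone, with thinning, and with cells of at least 2 Sox9 UMIs. Sftpa1 there turned to 0.094 with at least 5 UMIs, and with thinning, which left 2 such cells in the Epcam+ library, the fitted value turned to 6.788 for Sftpa1 and 7.887 for Cxcl15. DESeq2 did not call Sftpc in the interaction of tip against airway. The macrophage share of the Sftpc tip level was 3.12%, 1.98% and 11.5% with a lineage share of at least 0.9, and 7.67% and 6.76% in the Epcam+ Icam+ libraries with no cells left out by doublet score. The cause of these changes was not tested. Scaling by RLE moved the median gene by at most 0.04. No paired analysis was possible, because the label of the Epcam+ library holds no replicate number that would pair it with an Epcam+ Icam+ library. Depth limits Sftpd and Slc34a2 and every airway value of the Epcam+ Icam+ libraries, from 24 and 34 cells.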
